A study of Mus musculus with 13 samples.

Results

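Whole organoids grown from mouse small intestine in which Apc had been deleted through either of 2 Cre drivers were compared: 2 libraries from the secretory driver (Sec-Cre) against 2 from the stem cell driver (ISC-Cre), chosen by their titles, 4 of the 13 RNA-seq libraries of the series. Sec-Cre organoids came from adult mice of genotype Atoh1CreERT2;Apcfl/fl;Rosa26tdTomato and ISC-Cre organoids from Lgr5eGFP-CreERT2;Apcfl/fl;Rosa26tdTomato mice. The 2 control libraries came from organoids labelled WT, with no Cre, floxed Apc or reporter named. All mice, WT included, received 2 doses of 1 mg tamoxifen, and all organoids carry a time point of 10 days, which runs up to plating by the sample labels but begins at plating by the design text. The drivers act in different cells of the crypt, but whole organoids were collected, so a library holds every cell type of the culture and the share of cells that had lost Apc was not measured. Lgr5eGFP-CreERT2 is known as an insertion into Lgr5, so the level of Lgr5 does not compare equal alleles. No source used here says whether the Atoh1 driver changes the Atoh1 gene itself. Apc was at 205 and 226 in Sec-Cre, 215 and 269 in ISC-Cre organoids and 180.3 and 159 CPM in WT. Levels are in CPM, read counts scaled to library size with TMM factors. Those of Apc overlapped between the drivers (log2 fold change -0.17 ± 0.15 SE, adjusted p = 1), and a count over the whole gene does not resolve the floxed exons, so it is no check of the deletion.

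As background, Apc belongs to the complex that marks beta-catenin for destruction, and cells without it keep Wnt target genes on. In the crypt, Lgr5 marks the stem cells at the base, and Atoh1 is the transcription factor that commits their progeny to the secretory lineage, which includes Paneth cells (lysozyme and defensins) and goblet cells (mucus). Hox genes lie in 4 clusters, where their order along the chromosome follows the order of their domains along the body axis, and the gut keeps part of that positional code in adult epithelium.

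Total gene counts were between 17869369 and 22182702 in the 4 Apc-null libraries and 13631423 and 21306261 in WT. ISC-Cre replicate 1 stood apart from the other 5 organoid libraries in sex-linked genes. It held 23677 reads of Xist, the RNA of the inactive X chromosome, and no read of the Y-linked genes Ddx3y, Uty, Eif2s3y and Kdm5d, whereas the others held at most 9 reads of Xist and between 316 and 1526 reads of each Y-linked gene. By these genes the 2 ISC-Cre libraries were of different sexes, and values without ISC-Cre replicate 1 are given for the 6 genes called and some others. Reads of Rn45s, the ribosomal RNA precursor, were 1.23% and 1.67% of gene counts in Sec-Cre, 0.305% and 0.95% in ISC-Cre and 0.373% and 0.456% in WT libraries. No label tells whether the replicates came from separate mice or dishes. By the sex-linked genes the 2 ISC-Cre libraries did not come from the same mouse, while the spread within Sec-Cre and within WT may be technical. Each p-value weighs a difference only against the spread of these libraries. The extraction text names TrypLE for samples it calls Lgr5_ApcKO and collagenase for others, and if this covers ISC-Cre organoids, the enzyme and the driver cannot be told apart. Treatment labels place the organoid crypts in the ileum, while the extraction text names the duodenum. In the 4 Apc-null libraries the duodenal factor Pdx1 was at 0 to 0.0467 CPM and the ileal bile acid carrier Fabp6 at 0 to 0.315 CPM. WT organoids were low too, at 0.141 and 0.178 for Pdx1 and 0.985 and 2.27 CPM for Fabp6, scaled with all 13 libraries. Neither marker thus placed the organoids. Gata4, a factor of the proximal small intestine that the ileum mostly lacks, was at 32.6 and 67.7 in Sec-Cre, 29.9 and 20.5 in ISC-Cre organoids and 96.2 and 97.5 CPM in WT.

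The first question was how alike organoids from both drivers were. Across the 14208 genes tested, the root mean square difference in log2 CPM was 0.551 between the Sec-Cre replicates, 0.610 between the ISC-Cre replicates and 0.816 between the WT replicates. The 4 pairs that cross the drivers differed by 0.581 to 0.696 (mean 0.631). The mean and 2 of the 4 values were above both Apc-null replicate pairs, and all 4 were below the WT replicate pair. Both higher values came from pairs with ISC-Cre replicate 1 (0.664 and 0.696), and pairs with ISC-Cre replicate 2 were at 0.581 and 0.584. Pairs of an Apc-null with a WT library were at 1.67 to 1.97 (mean 1.82). Distances to WT were all above those of the replicate pairs. With 2 libraries against 2 no exact permutation test can go below p = 0.33, so no p is given for these distances.

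**Figure D1:**
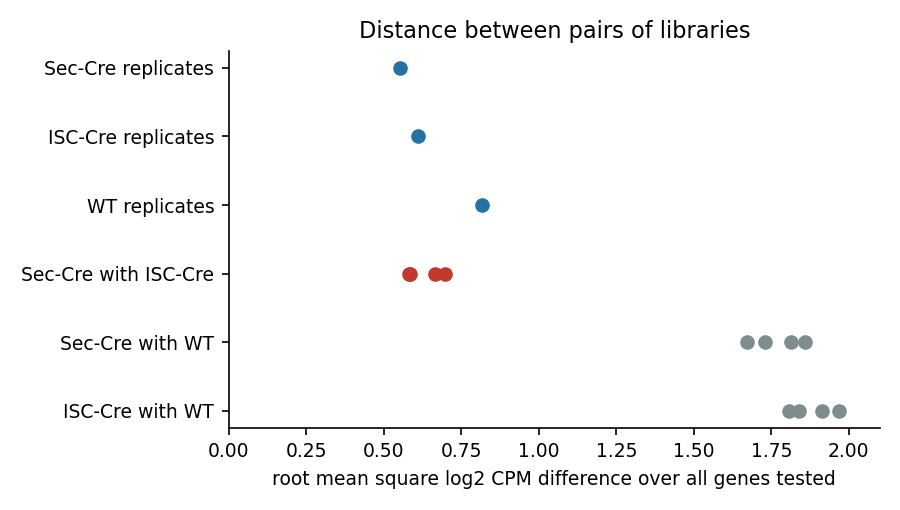
Each point is 1 pair of organoid libraries, placed by the root mean square log2 CPM difference over all genes tested (x axis), in rows by the groups paired. The 4 Sec-Cre with ISC-Cre pairs lie at 0.581 to 0.696, beside 0.551 and 0.610 for the Apc-null and 0.816 for the WT replicate pair, and the 8 pairs with WT lie at 1.67 to 1.97.

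Gene by gene, 6 of 14208 genes (0.0422%) differed between the drivers in the edgeR quasi-likelihood test at an adjusted p under 0.05, and all 6 were lower in Sec-Cre organoids: Hoxb9, Hoxb7, Hoxb6, Hoxb3, Reg4 and Lyz1. No gene was called higher in Sec-Cre by edgeR (0%), with 336 genes higher and 383 lower at an unadjusted p under 0.05 (2.36% and 2.7%). DESeq2 called 72 of 13657 genes (0.527%), 52 lower and 20 higher in Sec-Cre, among them all 6. Against the same WT organoids, edgeR called 4685 genes (33%) in Sec-Cre and 5377 (37.8%) in ISC-Cre. The count rests on few libraries. Without ISC-Cre replicate 1 or without Sec-Cre replicate 2, edgeR called 0 genes (412 and 372 at an unadjusted p under 0.05), and with 4 libraries alone it called 11. Without Sec-Cre replicate 1 it called 3, of which 2 were among the 6 and 1 was a HoxB gene. Without ISC-Cre replicate 2 it called 5, of which 1 was among the 6 and none was a HoxB gene, and the 5 included the sex-linked genes Xist, Ddx3y and Uty. Since a p above the threshold does not show likeness, the 95% interval of each log2 fold change was also taken. For 9226 of 14187 genes (65%) it lay within 2-fold either way, and for 88.3% of the 10198 genes with a mean log2 CPM of at least 3. The median absolute log2 fold change was 0.17 and the 90th percentile 0.78, beside a median half-width of the interval of 0.51. At the other end, 720 genes (5.07%) had groups that did not overlap and means at least 2-fold apart, 568 lower (4%) and 152 higher (1.07%) in Sec-Cre.

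**Figure D2:**
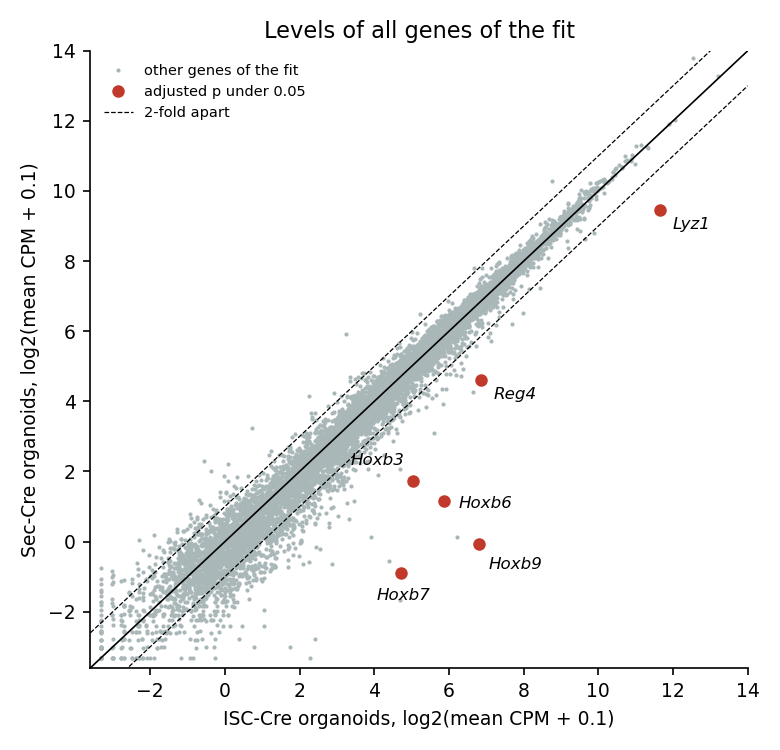
Mean level of each gene of the fit in ISC-Cre (x axis) and Sec-Cre organoids (y axis), as log2(mean CPM + 0.1). The solid line marks equal levels and dashed lines 2-fold differences. The 6 genes past the threshold all lie below the line, 4 of them HoxB genes.

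Of the 6 genes called, 4 lay in the HoxB cluster on chromosome 11, whose genes encode homeodomain transcription factors. Of its 10 genes, 7 had enough reads to be tested, and in all 7 both Sec-Cre libraries were below both ISC-Cre libraries (background 18.1% of genes lower without overlap). Of these, 4 passed the edgeR threshold and all 7 that of DESeq2 (0.381% of genes called lower). Hoxb1 and Hoxb13, at the ends of the cluster, had no read in the 6 organoid libraries, and Hoxb2 was at most 0.525 CPM. In chromosomal order from the posterior end, Hoxb9 (chr11:96271457-96276595, plus strand, GRCm38) was at 0.607 and 1.09 in Sec-Cre, 95.7 and 126 in ISC-Cre organoids and 9.32 and 2.13 CPM in WT. The lowest ISC-Cre library was 95.7 CPM, above every Sec-Cre and WT library, for a log2 fold change -7.01 ± 0.70 SE, adjusted p = 0.0347 in edgeR. Hoxb8 (chr11:96281905-96285315) was at 1.12 and 0.871 in Sec-Cre, 63.7 and 84.1 in ISC-Cre organoids and 9.16 and 1.72 CPM in WT. Its groups did not overlap either, but WT replicate 1 was well above WT replicate 2, and the difference missed the threshold (log2 fold change -6.21 ± 0.73 SE, adjusted p = 0.0711). Hoxb7 (chr11:96286623-96290162) was at 0.607 and 0.261 in Sec-Cre, 26.6 and 26.1 in ISC-Cre organoids and 2.59 and 1.67 CPM in WT. Here the ISC-Cre libraries lay close together and WT lay between the drivers (log2 fold change -5.91 ± 0.46 SE, adjusted p = 0.0196). Hoxb6 (chr11:96292476-96301569) was at 2.57 and 1.66 in Sec-Cre, 60.2 and 56.6 in ISC-Cre organoids and 7.45 and 3.14 CPM in WT. Both Sec-Cre libraries were below both WT libraries and far below ISC-Cre (log2 fold change -4.79 ± 0.43 SE, adjusted p = 0.0288). Hoxb5 (chr11:96303336-96306121) was at 0.654 and 0.523 in Sec-Cre, 17.5 and 24.4 in ISC-Cre organoids and 3.08 and 0.557 CPM in WT. ISC-Cre was the high group again, and WT replicate 2 was within the Sec-Cre range (log2 fold change -5.14 ± 0.75 SE, adjusted p = 0.189). Hoxb4 (chr11:96318267-96321638) was at 3.74 and 3.57 in Sec-Cre, 16.6 and 17.2 in ISC-Cre organoids and 2.03 and 2.99 CPM in WT. This was the smallest difference of the 7, and Sec-Cre was here above both WT libraries (log2 fold change -2.21 ± 0.32 SE, adjusted p = 0.189). Hoxb3 (chr11:96323326-96347930) was at 3.22 and 3.18 in Sec-Cre, 28.2 and 37.1 in ISC-Cre organoids and 3.65 and 2.28 CPM in WT. Sec-Cre lay inside the WT range and ISC-Cre above it (log2 fold change -3.35 ± 0.32 SE, adjusted p = 0.0288), but 52.7% of the 31-base words of its transcripts also occur, on either strand, in transcripts of another gene, most often the antisense RNA Hoxb3os, which was not analysed here. Libraries were non-directional, so reads of Hoxb3 and Hoxb3os cannot be told apart and the value of Hoxb3 is uncertain.

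**Figure D3:**
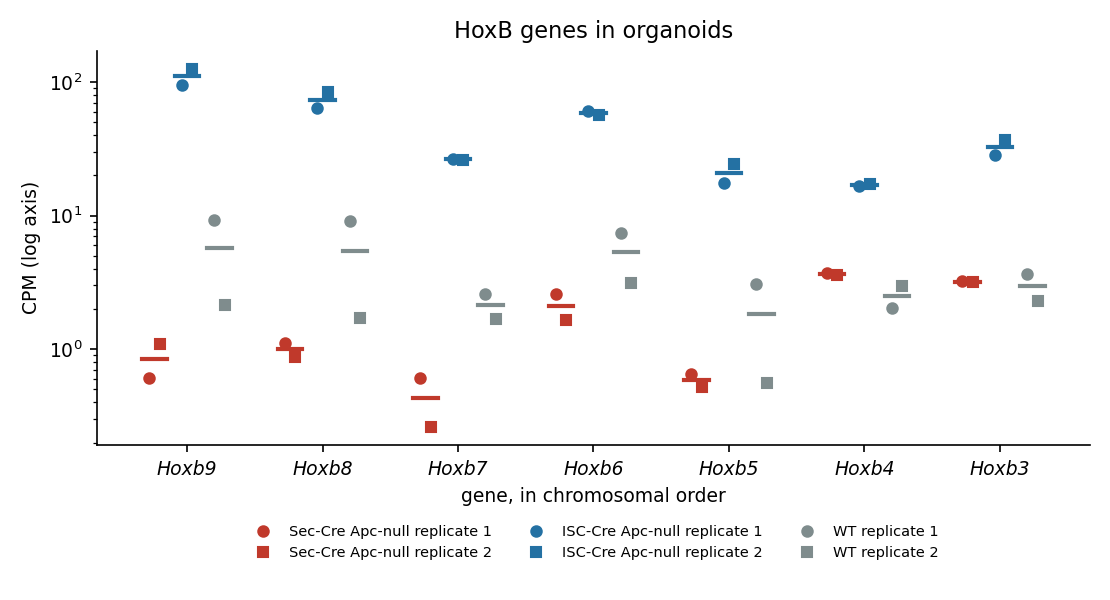
CPM on a log axis for the 7 tested HoxB genes in chromosomal order, with a point per library (circles replicate 1, squares replicate 2) and a bar at the group mean. ISC-Cre organoids (blue) are above Sec-Cre (red) and WT (grey) at every gene, from 3.57 and 3.74 against 16.6 and 17.2 CPM at Hoxb4 to 0.607 and 1.09 against 95.7 and 126 CPM at Hoxb9.

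The HoxB genes were also set against WT organoids. Both comparisons share the WT libraries, so their values are given side by side only. In ISC-Cre organoids all 7 genes rose over WT, with edgeR log2 fold changes of 2.74 to 4.33 and adjusted p of 0.000256 to 0.00584 (background 37.8% of genes called in either direction). In Sec-Cre organoids 3 of the 7 fell, beside a background of 33% of genes called in either direction, and nothing is read from that count. Hoxb9 fell by 2.68 (adjusted p = 0.0227), Hoxb8 by 2.38 (0.0395) and Hoxb7 by 2.27 (0.0088) on the log2 scale. Hoxb6 was at -1.29 ± 0.42 SE (adjusted p = 0.0506), Hoxb5 at -1.55 ± 0.75 SE (adjusted p = 0.152), Hoxb4 at 0.53 ± 0.33 SE (adjusted p = 0.252) and Hoxb3 at 0.13 ± 0.32 SE (adjusted p = 0.778) against WT. Leaving out ISC-Cre replicate 1 left the drivers as far apart, with a log2 fold change of -7.19 for Hoxb9, -5.89 for Hoxb7, -4.74 for Hoxb6 and -3.53 for Hoxb3, although the adjusted p then rose to 0.346, 0.301, 0.346 and 0.330. In the same fit Hoxb8 was at -6.39, Hoxb5 at -5.36 and Hoxb4 at -2.23. All 7 genes stayed without overlap when any 1 of the 4 Apc-null libraries was left out (backgrounds 33.1% and 28.9% without each Sec-Cre and 34.8% and 37.2% without each ISC-Cre replicate). A gene without overlap in all 4 libraries must stay so when 1 is removed, so nothing is read from that count.

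Of the 6 non-coding genes listed for the cluster, 3 were tested and the other 3 were not analysed here. All 3 were lower without overlap in Sec-Cre (background 18.1%). The filter asks for enough reads in 2 libraries, which for Mir196a-1 and Mir10a only ISC-Cre gave, so nothing is read from that count. None was called by edgeR, and DESeq2 called Gm53 and Mir196a-1 (adjusted p = 0.0354 and 0.000441, background 0.381%). Gm53, a long non-coding RNA gene on the Hoxb13 side of Hoxb9 (chr11:96251105-96264868), was at 0 and 0.436 in Sec-Cre, 23.7 and 27.3 in ISC-Cre organoids and 7.86 and 1.06 CPM in WT. No Sec-Cre library came near the ISC-Cre level, but the gene did not pass in edgeR (log2 fold change -6.79 ± 1.19 SE, adjusted p = 0.399). Mir196a-1, the microRNA gene between Gm53 and Hoxb9 (chr11:96265164-96265265), was at 0.0934 and 0 in Sec-Cre, 5.67 and 4.83 in ISC-Cre organoids and 0.972 and 0.152 CPM in WT, with 2 reads in Sec-Cre in all. The ratio of ISC-Cre to Sec-Cre was 117-fold (exact 95% counting interval 32.1 to 974), and the gene did not pass in edgeR (adjusted p = 0.413). Mir10a, between Hoxb5 and Hoxb4 (chr11:96317165-96317274), was at 0.0467 and 0 in Sec-Cre, 0.545 and 0.893 in ISC-Cre organoids and 0 and 0 CPM in WT, so that all its reads but 1 were in ISC-Cre libraries. That ratio was 31.3-fold (exact 95% counting interval 5.19 to 1279), and this gene did not pass either (adjusted p = 0.984). Both intervals cover counting error only. These are polyA libraries, so such reads are of longer RNA that covers the hairpin and do not measure the mature miRNAs. Both mature miRNAs are printed, from RefSeq on GRCm38.p6, because their genes lie inside the block of genes that separated the drivers. Capitals mark the seed, bases 2 to 8 counted from the 5′ end, which pairs with target RNAs, and the 2 seeds differ.
mmu-miR-196a-5p: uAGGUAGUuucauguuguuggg
mmu-miR-10a-5p: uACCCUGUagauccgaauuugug

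The RefSeq promoter table (GRCm38.p6) held 2 of the 7 tested HoxB genes, Hoxb8 and Hoxb4, which had the second largest and the smallest difference. The 250 bases before each start site, both on the plus strand, are chr11:96281655-96281904 for Hoxb8 and chr11:96318017-96318266 for Hoxb4, and are shown because their genes were the far ends of that range among genes with a printed window. They were searched on both strands for TTTATG, the word bound by caudal-type factors such as Cdx1 and Cdx2, for CTTTGAT, the word bound by the Wnt effectors TCF and LEF, and for CAGCTG, an E-box word, and capitals mark matches. None of the 3 words contains another.
Hoxb8: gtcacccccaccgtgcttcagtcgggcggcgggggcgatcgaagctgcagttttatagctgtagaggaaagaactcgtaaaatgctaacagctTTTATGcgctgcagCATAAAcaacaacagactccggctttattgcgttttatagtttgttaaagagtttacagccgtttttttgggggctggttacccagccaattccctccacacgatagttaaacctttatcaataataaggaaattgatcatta
Hoxb4: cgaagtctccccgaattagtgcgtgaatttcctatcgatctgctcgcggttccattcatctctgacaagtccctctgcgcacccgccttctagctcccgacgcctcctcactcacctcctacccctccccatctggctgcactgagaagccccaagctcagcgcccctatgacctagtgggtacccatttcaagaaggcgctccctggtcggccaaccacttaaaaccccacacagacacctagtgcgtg
The Hoxb8 window held TTTATG 2 times, in opposite orientation and starting 157 and 143 bases before the start site. The Hoxb4 window held none of the 3 words. Of 32851 windows of this length in the table, 10.8% held TTTATG, 3.21% CTTTGAT and 13% CAGCTG. Cdx2, the master factor of intestinal identity, was at 196 and 213 in Sec-Cre, 135 and 168 in ISC-Cre organoids and 358 and 328 CPM in WT. For Cdx2 the log2 fold change was 0.43 ± 0.14 SE (adjusted p = 0.984). Cdx1 was at 157 and 123 in Sec-Cre, 101 and 115 in ISC-Cre organoids and 230.4 and 335 CPM in WT. For Cdx1 the log2 fold change was 0.38 ± 0.21 SE (adjusted p = 1). Both Cdx genes were higher in both Sec-Cre than in both ISC-Cre libraries, and neither passed the test.

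Genes beside the cluster gave no call. Of 14 flanking genes on both sides, 10 were tested and none passed in edgeR or DESeq2 (1 at an unadjusted p under 0.05 in edgeR), with a median log2 fold change of 0.033 (0.0012 over all genes), and 6 had a 95% interval within 2-fold. Without overlap were 2 lower and 2 higher, at backgrounds of 18.1% and 20.7%. Cbx1, a heterochromatin protein gene beyond Hoxb1, was at 79.4 and 92.9 in Sec-Cre against 92.9 and 79.2 CPM in ISC-Cre organoids (-0.35 to 0.35 as the 95% interval of the log2 fold change). Its neighbours Snx11 (-0.58 to 0.29) and Nfe2l1 (-0.31 to 0.44) and, beyond Hoxb13, Ube2z (-0.16 to 0.42) and Snf8 (-0.32 to 0.46) had intervals within 2-fold too. Atp5g1, an ATP synthase subunit gene, was at 89.7 and 97.4 in Sec-Cre against 71.2 and 63.4 CPM in ISC-Cre organoids. For Atp5g1 the log2 fold change was 0.48 ± 0.14 SE (adjusted p = 0.984). The remaining tested neighbours had few reads in these libraries. Skap1, an adaptor of T cell signalling, was at 0.187 and 0 in Sec-Cre against 0.908 and 0.63 CPM in ISC-Cre organoids. For Skap1 the log2 fold change was -2.99 ± 1.28 SE (adjusted p = 0.993). Copz2, of the vesicle coat, was at 0 and 0.828 in Sec-Cre against 1.63 and 1.63 CPM in ISC-Cre organoids. For Copz2 the log2 fold change was -1.95 ± 1.12 SE (adjusted p = 1). For these 2 genes the groups did not overlap. The hormone gene Gip was at 0 and 0.174 in Sec-Cre against 1.72 and 0 CPM in ISC-Cre organoids (log2 fold change -3.23 ± 1.54 SE, adjusted p = 0.999), all from 2 libraries, and the RNA-binding protein gene Igf2bp1 at 1.26 and 0.697 in Sec-Cre against 0.771 and 0.683 CPM in ISC-Cre organoids. For Igf2bp1 the log2 fold change was 0.42 ± 0.76 SE (adjusted p = 1). Ttll6 was at most 0.218 CPM, Calcoco2 had no read, and Prac1 and Prac2 were not analysed here.

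No gene of the other 3 Hox clusters was called. The 11 HoxA genes summed to 0.234 and 0.479 CPM in Sec-Cre, 0.545 and 0.158 in ISC-Cre and 12.9 and 18.5 in WT organoids, so both drivers were near 0. Hoxa3 was at 0 and 0.218 in Sec-Cre, 0.227 and 0.105 in ISC-Cre organoids and 7.94 and 12.4 CPM in WT. For Hoxa3 the log2 fold change was -0.57 ± 1.11 SE (adjusted p = 1). Hoxa5 was at 0 and 0 in Sec-Cre, 0.182 and 0 in ISC-Cre organoids and 3.08 and 0.76 CPM in WT, too few reads in Apc-null libraries for a fold. Of the 11 HoxA genes 3 were tested, no HoxC gene had enough reads, and the 1 HoxD gene tested, Hoxd4, was at 0.234 and 1.87 in Sec-Cre, 0.454 and 1.05 in ISC-Cre organoids and 2.03 and 2.08 CPM in WT. For Hoxd4 the log2 fold change was 0.50 ± 0.96 SE (adjusted p = 1). Of 21 Hox cofactors and regulators 19 were tested, 5 lower and 7 higher without overlap (backgrounds 18.1% and 20.7%, also for the lists that follow) and none called. Suz12, a subunit of the Polycomb complex that silences Hox clusters, was at 196 and 194 in Sec-Cre against 165 and 233 CPM in ISC-Cre organoids (95% interval -0.43 to 0.38). In the regional code, 17 of 20 transcription factors were tested, none was called, and 3 were lower and 8 higher without overlap. Gata4, with the levels given above, reached an unadjusted p of 0.02 (log2 fold change 0.99 ± 0.34 SE, adjusted p = 0.984). Of 17 tested genes typical of duodenum and jejunum 3 were lower and 3 higher without overlap, among them Adh6a at 2.57 and 4.09 in Sec-Cre against 6.04 and 4.99 CPM in ISC-Cre organoids and Cybrd1, an iron reductase, at 1.5 and 3.92 in Sec-Cre against 6.53 and 8.35 CPM in ISC-Cre organoids (adjusted p = 0.984 each). Of 21 tested ileal genes 5 were lower and 2 higher, among them Naaladl1, a peptidase gene, at 1.96 and 2.53 in Sec-Cre against 8.62 and 2.73 CPM in ISC-Cre organoids (adjusted p = 0.984). Neither list held an edgeR call, and in DESeq2 the ileal list held 1, Guca2b (adjusted p = 0.00309). The region each organoid line came from was not tested.

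The other 2 genes called, Lyz1 and Reg4, are products of secretory cells. Of 25 tested Paneth cell genes 11 were lower in Sec-Cre organoids without overlap and 0 higher (backgrounds 18.1% and 20.7%), and of 23 tested goblet cell genes 15 were lower and 0 higher. By edgeR both count as called Paneth genes and Reg4, which is in both lists, also as the 1 called goblet gene (background 0.0422%). DESeq2 called 5 and 8, all lower (background 0.381%). Median log2 fold changes were -0.83 for Paneth and -0.61 for goblet genes, against 0.0012 over all genes. Without ISC-Cre replicate 1 the counts were 11 Paneth genes lower and 3 higher and 16 goblet genes lower and 3 higher, beside 34.8% of all genes lower and 38.2% higher without overlap in that setting, and the Paneth count was near that background. Leaving out ISC-Cre replicate 2 in its place gave 19 and 0 Paneth and 21 and 0 goblet genes (backgrounds 37.2% and 37.9%). Summed Paneth genes made 4061 and 4225 CPM in Sec-Cre, 9817 and 6792 in ISC-Cre and 11091 and 13012 in WT organoids. Summed goblet genes made 836 and 909, 1378 and 1012, and 6569 and 6935 CPM in the same order. By these sums Sec-Cre was the lowest group in both lists and ISC-Cre replicate 1 was above ISC-Cre replicate 2. The 2 called genes, with the levels given below, carry much of the gap between Sec-Cre and ISC-Cre replicate 2. Lyz1 does so in the Paneth sums and Reg4 in the goblet sums, and sums without them were not taken. In bulk libraries fewer cells of a type and less RNA per cell cannot be told apart.

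Lyz1, the lysozyme of Paneth cells (chr10:117287797-117292868, minus strand), was at 803 and 608 in Sec-Cre, 3784 and 2693 in ISC-Cre organoids and 2461 and 2610.0 CPM in WT. Both Sec-Cre libraries were below all others, while ISC-Cre was above WT in both (log2 fold change -2.20 ± 0.21 SE, adjusted p = 0.0288). Since 34.2% of its 31-base words also occur in transcripts of other genes, its paralog Lyz2 among them, reads can be split or lost between them. Lyz2 itself was at 0.42 and 1.13 in Sec-Cre, 6.67 and 0.473 in ISC-Cre organoids and 0.486 and 0.405 CPM in WT. Reg4, a lectin made by secretory cells (chr3:98222156-98236748, plus strand), was at 24.4 and 23.8 in Sec-Cre, 132 and 100.3 in ISC-Cre organoids and 213 and 175 CPM in WT. The 3 groups were in the order Sec-Cre, ISC-Cre, WT with no overlap (log2 fold change -2.27 ± 0.18 SE, adjusted p = 0.0196). Against WT, Reg4 stood at -3.01 ± 0.18 SE (adjusted p = 6.06e-05) in Sec-Cre and -0.74 ± 0.17 SE (adjusted p = 0.0127) in ISC-Cre organoids. Lyz1 fell in Sec-Cre, -1.85 ± 0.21 SE (adjusted p = 0.000716), and was at 0.35 ± 0.20 SE (adjusted p = 0.208) in ISC-Cre organoids. Without ISC-Cre replicate 1 the log2 fold change between the drivers was -1.93 for Lyz1 (adjusted p = 0.301) and -2.05 for Reg4 (adjusted p = 0.204).

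The following genes, except Ang4, were picked from the list after their values were seen, to show genes with and without overlap between the drivers. Among the other Paneth products, the antimicrobial ribonuclease Ang4 was at 321 and 336 in Sec-Cre, 678 and 493 in ISC-Cre organoids and 458 and 397 CPM in WT. For Ang4 the log2 fold change was -0.83 ± 0.17 SE (adjusted p = 0.716). Defa5, an alpha-defensin, was at 71.5 and 112 in Sec-Cre, 340.3 and 161 in ISC-Cre organoids and 283 and 292 CPM in WT. For Defa5 the log2 fold change was -1.45 ± 0.35 SE (adjusted p = 0.749). Both were lower in both Sec-Cre libraries than in ISC-Cre, and both passed only in DESeq2 (adjusted p = 0.00357 and 0.00768). Itln1, an intelectin that binds microbial sugars, was at 436 and 465 in Sec-Cre, 1108 and 775 in ISC-Cre organoids and 1417 and 2789 CPM in WT. For Itln1 the log2 fold change was -1.06 ± 0.31 SE (adjusted p = 0.984). Wnt3, the Wnt ligand that Paneth cells supply to stem cells, was at 11.7 and 11.8 in Sec-Cre, 22.4 and 18.3 in ISC-Cre organoids and 16.4 and 20.2 CPM in WT. For Wnt3 the log2 fold change was -0.79 ± 0.22 SE (adjusted p = 0.981). Mmp7, the protease that activates defensins, was at 492 and 676 in Sec-Cre, 801 and 643 in ISC-Cre organoids and 314 and 338 CPM in WT, and its drivers overlapped (log2 fold change -0.30 ± 0.18 SE, adjusted p = 1). Pla2g2a, a bactericidal phospholipase, overlapped as well, at 305 and 191 in Sec-Cre against 287 and 220.5 CPM in ISC-Cre organoids, with a 95% interval of the log2 fold change of -0.57 to 0.51. The list was thus mixed: 14 of its 25 tested genes had overlapping groups. Alpha-defensin genes are close copies of one another, so the value of Defa5 is uncertain.

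Of the goblet genes, Muc2, the gel-forming mucin of the mucus layer (chr7:141690340-141754693), was at 9.3 and 7.67 in Sec-Cre, 61.8 and 34.4 in ISC-Cre organoids and 288 and 301 CPM in WT. The highest Sec-Cre library was below the lowest ISC-Cre library and both drivers were far below WT (log2 fold change -2.51 ± 0.28 SE, adjusted p = 0.051 in edgeR, 2.45e-15 in DESeq2). Muc2, Agr2 and Atoh1 were named by rule, and the other genes of this paragraph after their values were seen. Agr2, the disulfide isomerase that folds mucins, was at 35.9 and 42.6 in Sec-Cre, 100.1 and 75 in ISC-Cre organoids and 311 and 297 CPM in WT. For Agr2 the log2 fold change was -1.16 ± 0.17 SE (adjusted p = 0.189). Spink4, a protease inhibitor gene of goblet cells, was at 33.2 and 50.5 in Sec-Cre, 74.1 and 80.3 in ISC-Cre organoids and 502 and 523 CPM in WT. For Spink4 the log2 fold change was -0.88 ± 0.20 SE (adjusted p = 0.749). Agr2 and Spink4 kept the same order of groups as Muc2. Without ISC-Cre replicate 1 the log2 fold change was -2.02 for Muc2, -0.93 for Agr2 and -0.66 for Atoh1. Ern2, the stress sensor of mucin-producing cells, was at 13.3 and 17 in Sec-Cre, 30.3 and 29.8 in ISC-Cre organoids and 36.3 and 54.4 CPM in WT (log2 fold change -0.99 ± 0.24 SE, adjusted p = 0.749 in edgeR, 0.0454 in DESeq2). Guca2a, guanylin, was at 48.1 and 48.8 in Sec-Cre, 72.2 and 73.7 in ISC-Cre organoids and 463 and 367 CPM in WT. For Guca2a the log2 fold change was -0.59 ± 0.14 SE (adjusted p = 0.749). The drivers overlapped for Fcgbp, a mucus protein, at 249.8 and 183 in Sec-Cre, 300.0 and 171 in ISC-Cre organoids and 3200.1 and 3465 CPM in WT. For Fcgbp the log2 fold change was -0.12 ± 0.26 SE (adjusted p = 1). They overlapped for the trefoil peptide Tff3 as well, at 175 and 237 in Sec-Cre, 247 and 159.8 in ISC-Cre organoids and 836 and 832 CPM in WT. For Tff3 the log2 fold change was 0.019 ± 0.23 SE (adjusted p = 1). Atoh1, the fate factor of this lineage and the locus that names the Sec-Cre driver (chr6:64729125-64731245), was at 12.2 and 12.7 in Sec-Cre, 25 and 19.7 in ISC-Cre organoids and 45.8 and 48.3 CPM in WT. Its drivers did not overlap and both were below WT (log2 fold change -0.85 ± 0.19 SE, adjusted p = 0.749 in edgeR, 0.0259 in DESeq2). Spdef, its target in goblet and Paneth cells, was at 7.85 and 10.8 in Sec-Cre against 17.8 and 11.3 CPM in ISC-Cre organoids (log2 fold change -0.64 ± 0.29 SE, adjusted p = 0.999). Gfi1, a further secretory factor, was at 7.99 and 6.49 in Sec-Cre against 11.2 and 11 CPM in ISC-Cre organoids. For Gfi1 the log2 fold change was -0.61 ± 0.34 SE (adjusted p = 1). Of 22 tested genes of the Notch pathway, which restrains Atoh1, 7 were lower and 3 higher without overlap (backgrounds 18.1% and 20.7%) and none passed in edgeR. Its effector Hes1 was at 112 and 101 in Sec-Cre against 127 and 107 CPM in ISC-Cre organoids, which overlapped, with a 95% interval of -0.50 to 0.23.

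**Figure D4:**
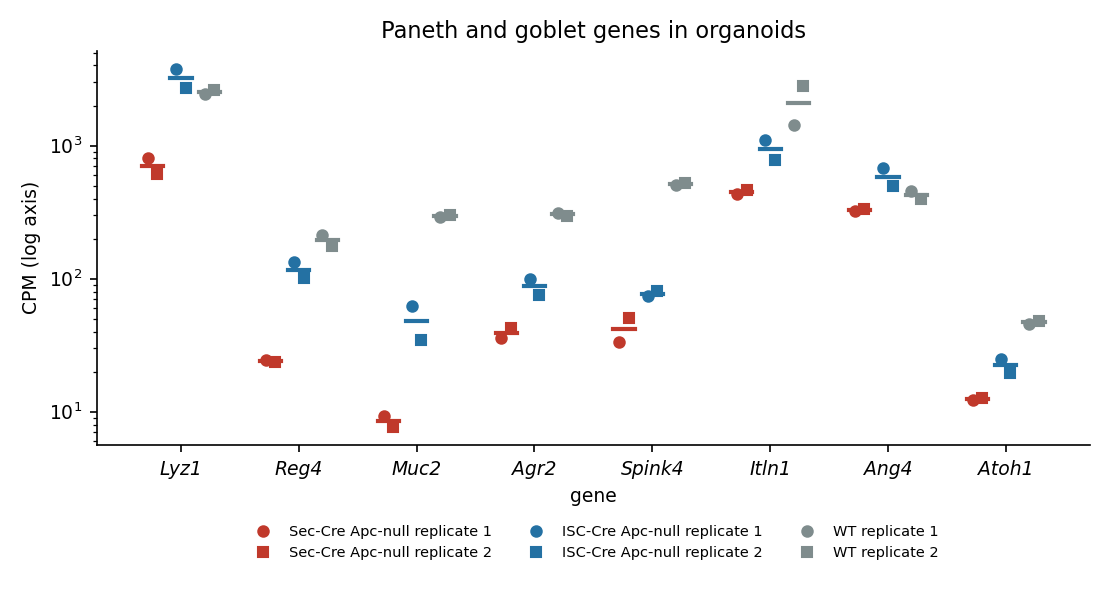
CPM on a log axis for 8 Paneth and goblet cell genes, with a point per library and a bar at the group mean. The 8 were chosen with their values known, and the drivers did not overlap at any of them. Paneth and goblet genes at which the drivers overlapped, such as Mmp7, Pla2g2a, Fcgbp and Tff3, are not shown. Sec-Cre organoids (red) lie below ISC-Cre (blue) at each, as for Reg4 at 23.8 and 24.4 against 100.3 and 132 CPM, of the 8 only Lyz1 and Reg4 passed the edgeR threshold, and ISC-Cre lies above WT (grey) for Lyz1 and Ang4 only.

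Promoter windows of the same length from the RefSeq table are shown for the called secretory genes, Reg4 (chr3:98221906-98222155, plus strand) and Lyz1 (chr10:117292869-117293118, minus strand), and for Muc2 (chr7:141690090-141690339, plus strand) and Atoh1 (chr6:64728875-64729124, plus strand), whose values between the drivers missed the threshold. Capitals mark matches to the 3 words searched above.
Reg4: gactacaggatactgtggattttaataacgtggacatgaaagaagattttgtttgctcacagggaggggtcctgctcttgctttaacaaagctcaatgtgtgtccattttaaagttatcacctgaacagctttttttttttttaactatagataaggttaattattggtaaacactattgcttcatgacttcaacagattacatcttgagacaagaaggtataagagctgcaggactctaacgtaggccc
Lyz1: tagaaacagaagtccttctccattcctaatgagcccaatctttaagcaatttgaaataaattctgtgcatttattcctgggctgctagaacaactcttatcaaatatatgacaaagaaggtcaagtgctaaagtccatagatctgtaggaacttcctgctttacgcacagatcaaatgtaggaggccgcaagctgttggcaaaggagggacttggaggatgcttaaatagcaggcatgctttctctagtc
Muc2: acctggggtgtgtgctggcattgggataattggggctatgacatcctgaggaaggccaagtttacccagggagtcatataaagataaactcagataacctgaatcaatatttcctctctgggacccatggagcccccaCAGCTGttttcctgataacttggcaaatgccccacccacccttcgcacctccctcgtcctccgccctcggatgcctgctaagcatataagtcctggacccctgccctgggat
Atoh1: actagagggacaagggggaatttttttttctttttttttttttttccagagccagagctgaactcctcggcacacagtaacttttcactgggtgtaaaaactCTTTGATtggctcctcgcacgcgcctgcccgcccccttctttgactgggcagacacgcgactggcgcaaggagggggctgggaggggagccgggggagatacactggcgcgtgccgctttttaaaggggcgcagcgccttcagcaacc
The Muc2 window held the E-box word CAGCTG 1 time, starting 112 bases before the start site, and the Atoh1 window held CTTTGAT 1 time, starting 148 bases before it. Those of Reg4 and Lyz1 held none of the 3 words.

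The other differentiated lineages gave no edgeR call. Of 32 tested enteroendocrine (hormone cell) genes 5 were lower and 6 higher without overlap (backgrounds 18.1% and 20.7%, also for tuft cell and enterocyte genes), with a median log2 fold change of -0.037. Of these, 3 lower and 3 higher genes had means at least 2-fold apart. Both genes given next were lower without overlap, and of them only Sct had means at least 2-fold apart. Sct, the hormone secretin, was at 1.92 and 4.27 in Sec-Cre against 10.1 and 7.51 CPM in ISC-Cre organoids (log2 fold change -1.5 ± 0.44 SE, adjusted p = 0.984). Pcsk1, a prohormone convertase, was at 3.64 and 3.01 in Sec-Cre against 7.62 and 5.25 CPM in ISC-Cre organoids. For Pcsk1 the log2 fold change was -0.96 ± 0.37 SE (adjusted p = 0.984). Of 17 tested tuft cell genes 5 were lower and 2 higher. Their median log2 fold change was -0.091, with a range of -4.29 to 2.26, and the tuft genes given next are all among the lower ones. Avil, an actin-binding protein of tuft cells, was at 24.9 and 11.3 in Sec-Cre against 51.5 and 35.5 CPM in ISC-Cre organoids (log2 fold change -1.27 ± 0.37 SE, adjusted p = 0.984). Ptgs1, cyclooxygenase 1, was at 38.7 and 20 in Sec-Cre against 72.9 and 68.3 CPM in ISC-Cre organoids (log2 fold change -1.27 ± 0.44 SE, adjusted p = 0.984). Plcg2, a phospholipase, was at 13.5 and 13.2 in Sec-Cre against 26.2 and 18.3 CPM in ISC-Cre organoids. For Plcg2 the log2 fold change was -0.74 ± 0.23 SE (adjusted p = 0.984). All 3 had groups that did not overlap. Enterocyte genes, which make the absorptive surface, gave 9 higher (25.7%) and 3 lower of 35 tested, the higher share near its background. Their median log2 fold change was -0.055, with a range of -3.64 to 2.19. Both enterocyte genes given next are among the higher ones. Fabp2, a fatty acid carrier, was at 7.94 and 8.28 in Sec-Cre, 3.4 and 4.73 in ISC-Cre organoids and 59.6 and 108 CPM in WT (log2 fold change 1.00 ± 0.32 SE, adjusted p = 0.984). The amino acid transporter Slc7a9 was at 0.841 and 1.31 in Sec-Cre, 0.499 and 0.525 in ISC-Cre organoids and 18.9 and 19 CPM in WT. For Slc7a9 the log2 fold change was 1.06 ± 0.41 SE (adjusted p = 0.984). Fabp2 and Slc7a9 were higher in both Sec-Cre libraries. Enterocyte genes summed to 996 and 1155 CPM in Sec-Cre and 881 and 884 CPM in ISC-Cre against 10284 and 8266 CPM in WT organoids. Both drivers were thus far below WT in this lineage.

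No Wnt target gene was called between the drivers in edgeR, and DESeq2 called 1, Tcf7. Of 31 tested, 11 were lower and 4 higher without overlap (backgrounds 18.1% and 20.7%, also for the stem cell signature), the median log2 fold change was -0.20, and 18 had a 95% interval within 2-fold. Axin2, the feedback inhibitor most used as a readout of the pathway, was at 909.6 and 871 in Sec-Cre, 888 and 902 in ISC-Cre organoids and 255 and 448 CPM in WT. The 4 Apc-null libraries lay within a narrow range above WT, and the interval of the difference between drivers was -0.56 to 0.54 on the log2 scale. Tcf7, a TCF factor and itself a target, was at 64.5 and 57.3 in Sec-Cre, 118 and 88.8 in ISC-Cre organoids and 21.2 and 21.8 CPM in WT (log2 fold change -0.77 ± 0.17 SE, adjusted p = 0.749 in edgeR, 0.0303 in DESeq2). Wif1, a secreted Wnt inhibitor, was at 39.9 and 26 in Sec-Cre, 74.6 and 58.5 in ISC-Cre organoids and 0.081 and 0.0506 CPM in WT. For Wif1 the log2 fold change was -1.02 ± 0.24 SE (adjusted p = 0.749). Both were below ISC-Cre in both Sec-Cre libraries and above WT in all 4. The stem cell signature gave 7 higher and 4 lower of 33 tested, none called, with 26 intervals within 2-fold. Lgr5, in which the ISC-Cre driver sits, was at 137 and 310.1 in Sec-Cre, 116 and 88.2 in ISC-Cre organoids and 237 and 257 CPM in WT. Sec-Cre replicate 2 was above both WT libraries and the other 3 Apc-null libraries were below them (log2 fold change 1.13 ± 0.34 SE, adjusted p = 0.984, 95% interval 0.32 to 1.93). The value rests on that library: it was 0.42 without Sec-Cre replicate 2, 1.60 without Sec-Cre replicate 1 and 1.34 without ISC-Cre replicate 1. Hopx, a homeobox gene of reserve stem cells, was at 221 and 243 in Sec-Cre, 147 and 157 in ISC-Cre organoids and 167 and 211 CPM in WT (log2 fold change 0.61 ± 0.15 SE, adjusted p = 0.749), with 26.2% of its 31-base words shared, most often with its antisense gene.

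**Figure D5:**
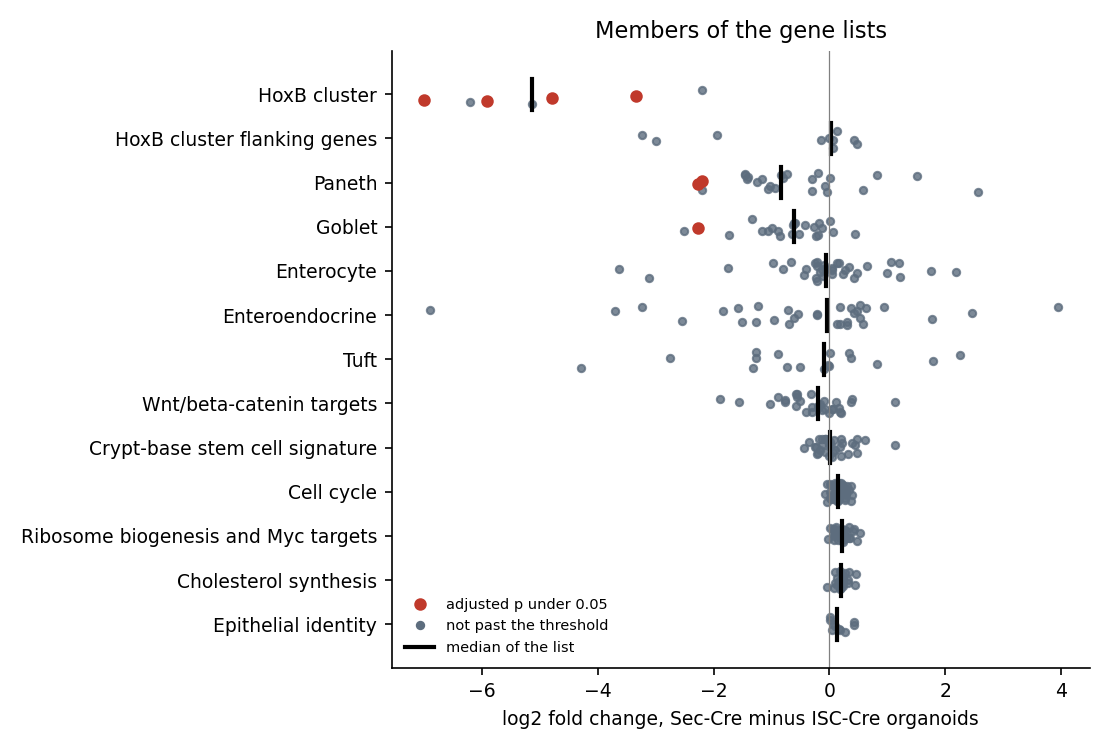
Each point is the log2 fold change (Sec-Cre minus ISC-Cre, x axis) of 1 tested gene, in rows by gene list, and the black bar is the median of the list. HoxB genes lie at -7.01 to -2.21, Paneth and goblet medians at -0.83 and -0.61, and the cell cycle, ribosome biogenesis and cholesterol lists within a band slightly above 0.

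Genes of growth had medians slightly above 0, and none was called by edgeR or DESeq2 (10 of 103 higher at an unadjusted p under 0.05 in edgeR, background 2.36%). Of 40 cell cycle genes 22 were higher and 1 lower without overlap (backgrounds 20.7% and 18.1%), with a median log2 fold change of 0.16, a range of -0.072 to 0.39 and 39 intervals within 2-fold. The most abundant, Top2a and Mki67, which mark dividing cells, were at 732 and 812 in Sec-Cre against 685 and 830.1 CPM in ISC-Cre organoids and at 526 and 597 in Sec-Cre against 449 and 619.8 CPM in ISC-Cre organoids, both overlapping. Ribosome biogenesis and Myc target genes gave 28 higher and 0 lower of 38 tested, a median of 0.22 and 38 intervals within 2-fold. Ncl, nucleolin, was at 1276 and 1289 in Sec-Cre against 1030.2 and 1165 CPM in ISC-Cre organoids (log2 fold change 0.22 ± 0.16 SE, adjusted p = 1). Npm1, nucleophosmin, was at 1051 and 1059 in Sec-Cre against 839 and 945 CPM in ISC-Cre organoids. For Npm1 the log2 fold change was 0.24 ± 0.12 SE (adjusted p = 1). Cholesterol synthesis gave 16 higher and 0 lower of 25, a median of 0.20 and 25 intervals within 2-fold, with the regulator Srebf2 at 457 and 414 in Sec-Cre against 431 and 388 CPM in ISC-Cre organoids. These medians kept their sign under RLE scaling, where the median of all genes moved from 0.0012 to -0.022. Without ISC-Cre replicate 2, 32 cell cycle genes were higher and 1 lower (backgrounds 37.9% and 37.2%). The same counts were 26 and 8 when ISC-Cre replicate 1 was left out (backgrounds 38.2% and 34.8%). Beside these lists, the share of Rn45s differed between the drivers as given above, and the 3529 genes of at most 2672 exon bases had a median of 0.060, against -0.050 for the 3525 of at least 6666. Their part in the medians was not tested. Glycolysis and hypoxia genes had 6 higher and 0 lower of 24 without overlap, near the background for higher genes (20.7%), and a median of 0.31, with ISC-Cre replicate 1 the lowest library (summed 5582 CPM, others 8374 to 9361 CPM). Pkm and Gapdh, of that list, were at 2203 and 1898 in Sec-Cre against 1426 and 1921 CPM in ISC-Cre organoids and at 1696 and 1443 in Sec-Cre against 1150.3 and 1653 CPM in ISC-Cre organoids, both overlapping.

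Outside these lists, genes were named by the smallest unadjusted p among those at least 2-fold apart without overlap and with a mean log2 CPM of at least 2, up to 15 in each direction. Adcy1, an adenylate cyclase that makes cyclic AMP, was at 22.3 and 16 in Sec-Cre, 108 and 92.4 in ISC-Cre organoids and 0.81 and 1.62 CPM in WT. It was high in ISC-Cre, intermediate in Sec-Cre and near 0 in WT (log2 fold change -2.39 ± 0.26 SE, adjusted p = 0.051 in edgeR, 9.41e-16 in DESeq2). Limch1, an actomyosin regulator, had the same order, at 20.1 and 13.8 in Sec-Cre, 51.9 and 41 in ISC-Cre organoids and 2.84 and 3.24 CPM in WT. For Limch1 the log2 fold change was -1.45 ± 0.24 SE (adjusted p = 0.379). Without ISC-Cre replicate 1 that of Adcy1 was -2.27. Krt14, a keratin of stratified epithelia, was at 4.25 and 6.62 in Sec-Cre, 22 and 16.5 in ISC-Cre organoids and 0 and 0 CPM in WT (log2 fold change -1.82 ± 0.36 SE, adjusted p = 0.749), with no read in WT. Adh1, an alcohol dehydrogenase, was at 1.96 and 1.13 in Sec-Cre, 11.3 and 4.88 in ISC-Cre organoids and 131 and 112 CPM in WT (log2 fold change -2.40 ± 0.44 SE, adjusted p = 0.452). The kallikrein Klk1 was at 2.2 and 3.27 in Sec-Cre, 10.2 and 7.98 in ISC-Cre organoids and 99.4 and 65.9 CPM in WT (log2 fold change -1.73 ± 0.30 SE, adjusted p = 0.398), where 40.5% of its 31-base words are shared with other genes. For both, Sec-Cre was lowest and WT highest by far. Guca2b, uroguanylin, was at 16.7 and 10.3 in Sec-Cre, 39.7 and 32.2 in ISC-Cre organoids and 209.8 and 132 CPM in WT (log2 fold change -1.42 ± 0.30 SE, adjusted p = 0.716). Creb3l1, a transcription factor of secretory cells, was at 5.7 and 7.01 in Sec-Cre, 14.8 and 11.6 in ISC-Cre organoids and 66.6 and 60.2 CPM in WT (log2 fold change -1.05 ± 0.21 SE, adjusted p = 0.653). Atp2a3, a calcium pump, was at 18.3 and 30.5 in Sec-Cre, 53.6 and 46.7 in ISC-Cre organoids and 238 and 233 CPM in WT. For Atp2a3 the log2 fold change was -1.04 ± 0.23 SE (adjusted p = 0.749). Those 3 were in the same order as Klk1. Fam189b was at 9.2 and 7.62 in Sec-Cre against 29.3 and 19 CPM in ISC-Cre organoids. For Fam189b the log2 fold change was -1.52 ± 0.33 SE (adjusted p = 0.749). Ccdc88b was at 1.68 and 1.26 in Sec-Cre against 13.3 and 6.62 CPM in ISC-Cre organoids. For Ccdc88b the log2 fold change was -2.76 ± 0.62 SE (adjusted p = 0.749). The edgeR test called none of the genes of these sentences, and DESeq2 called each of the 10 (background 0.381%). They were chosen by a small edgeR p in the same libraries, so nothing is read from that count.

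In the other direction, Sphk1, which makes the lipid signal sphingosine 1-phosphate, was at 19 and 16.1 in Sec-Cre, 5.45 and 3.89 in ISC-Cre organoids and 30.2 and 24.2 CPM in WT. Both Sec-Cre libraries were above both ISC-Cre libraries and below WT (log2 fold change 1.91 ± 0.26 SE, adjusted p = 0.169 in edgeR, 7.75e-07 in DESeq2). Phgr1, a gene of gut epithelium, was at 24.5 and 25.1 in Sec-Cre, 10.8 and 11.3 in ISC-Cre organoids and 138 and 102 CPM in WT (log2 fold change 1.17 ± 0.19 SE, adjusted p = 0.281). Abcc2, an apical export pump, was at 112 and 67.5 in Sec-Cre, 40.8 and 33.4 in ISC-Cre organoids and 292 and 169.6 CPM in WT. For Abcc2 the log2 fold change was 1.27 ± 0.31 SE (adjusted p = 0.825). They kept the order ISC-Cre, Sec-Cre, WT. Atp5k, an ATP synthase subunit, was at 25.8 and 29.7 in Sec-Cre, 12.4 and 12.8 in ISC-Cre organoids and 13.3 and 16.6 CPM in WT, with Sec-Cre above both other groups (log2 fold change 1.13 ± 0.21 SE, adjusted p = 0.483). These 4 genes passed in DESeq2 (background 0.146%), and nothing is read from that count either, since they were chosen in the same way. Bmp6, a BMP ligand, was at 15.3 and 20.3 in Sec-Cre, 9.03 and 8.09 in ISC-Cre organoids and 1.38 and 2.94 CPM in WT (log2 fold change 1.06 ± 0.37 SE, adjusted p = 0.984). Lars2, the mitochondrial leucyl-tRNA synthetase, was at 1051 and 1458 in Sec-Cre, 249 and 615 in ISC-Cre organoids and 199 and 252 CPM in WT. For Lars2 the log2 fold change was 1.54 ± 0.39 SE (adjusted p = 0.855). Lars2 was lowest among Apc-null libraries in ISC-Cre replicate 1, as was Rn45s, at 12069 and 16105 in Sec-Cre, 2893 and 8914 in ISC-Cre organoids and 4124 and 4921 CPM in WT. For Rn45s the log2 fold change was 1.25 ± 0.45 SE (adjusted p = 0.984). The retinal dehydrogenase gene Aldh1a7, Mreg, Unc5cl, the periaxin gene Prx, the riboflavin transporter Slc52a3 and the adenosine receptor Adora1 completed the list with log2 fold changes of 1.00 to 1.37 and adjusted p of 0.984 to 0.993. With 1 library left out, the log2 fold change ranged over 0.31 to 1.98 for Adora1, 0.33 to 1.64 for Unc5cl, 0.55 to 1.93 for Slc52a3, 0.80 to 1.60 for Aldh1a7, 1.03 to 2.33 for Lars2 and 0.66 to 2.29 for Rn45s. The lowest of these values came without Sec-Cre replicate 2 for Adora1, Unc5cl and Aldh1a7, without Sec-Cre replicate 1 for Slc52a3 and without ISC-Cre replicate 1 for Lars2 and Rn45s. Dynlt1b, with 86.9% of its 31-base words shared with other genes, Dynlt1c among them, is uncertain.

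By their markers, the 4 libraries were epithelial. The 10 genes of epithelial identity had intervals within 2-fold, with Krt8 at 2614 and 2468 in Sec-Cre against 2402 and 2098 CPM in ISC-Cre organoids and the E-cadherin gene Cdh1 at 1365 and 1357 in Sec-Cre against 1363 and 1267 CPM in ISC-Cre organoids. Markers of other cell types were mostly low in both drivers. Of 16 immune markers 4 were tested. All counted markers of that list, tested or not, summed to 7.85 and 8.01 CPM in Sec-Cre and 16 and 9.09 CPM in ISC-Cre, with the T cell genes Cd3g, Cd4 and Cd8a without a read. Of 10 endothelial and 8 neural markers 5 and 4 were tested and none called. Stromal markers summed to 665 and 309 CPM against 620.0 and 791 CPM, of which Vim, the intermediate filament vimentin, was at 655 and 302 in Sec-Cre, 599 and 779 in ISC-Cre organoids and 11.5 and 13.5 CPM in WT. The defining fibroblast genes Col1a1 and Pdgfra were under 2 CPM in every Apc-null library, and Acta2, smooth muscle actin, was at 0.888 and 0.697 in Sec-Cre against 9.71 and 0.945 CPM in ISC-Cre organoids (log2 fold change -2.75 ± 1.07 SE, adjusted p = 0.984), high in ISC-Cre replicate 1 alone. Of the endothelial markers Cdh5 was at 17.4 and 8.06 in Sec-Cre against 26.3 and 11.6 CPM in ISC-Cre organoids and Egfl7 at 5.47 and 5.75 in Sec-Cre against 5.81 and 5.09 CPM in ISC-Cre organoids. Of the immune markers Cd68, of macrophages, was at 5.65 and 3.57 in Sec-Cre against 5.31 and 5.94 CPM in ISC-Cre organoids. Of the neural markers Ret was at 3.22 and 6.23 in Sec-Cre against 4.54 and 4.83 CPM in ISC-Cre organoids. The drivers overlapped at each of these 4 genes. BMP targets and antagonists gave 7 lower and 0 higher of 17 tested without overlap (backgrounds 18.1% and 20.7%), none called, with the activin inhibitor Fst at 5.89 and 3.14 in Sec-Cre against 10.8 and 8.82 CPM in ISC-Cre organoids (log2 fold change -1.12 ± 0.42 SE, adjusted p = 0.984). The receptor gene Bmpr1b was at 0.0467 and 0.174 in Sec-Cre against 1.04 and 0.578 CPM in ISC-Cre organoids. For Bmpr1b the log2 fold change was -2.80 ± 1.05 SE (adjusted p = 0.984). In the stress lists Hspb1, a small heat shock protein, was at 24.1 and 18.4 in Sec-Cre against 35.8 and 31.3 CPM in ISC-Cre organoids (log2 fold change -0.66 ± 0.23 SE, adjusted p = 0.984). The endoplasmic reticulum chaperones Pdia3 and Hsp90b1 were at 808 and 727 in Sec-Cre against 825 and 784 CPM in ISC-Cre organoids and at 799.7 and 746 in Sec-Cre against 757 and 789 CPM in ISC-Cre organoids. Of 27 immediate early and dissociation genes 4 were lower and 5 higher without overlap (backgrounds 18.1% and 20.7%), with none called and a median of 0.018. Values of Hoxa3, Hoxd4, Krt14, Krt8, Hspb1, Npm1, Pkm and Gapdh are uncertain too, since over 20% of their 31-base words also occur in another gene or pseudogene.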

How the data were processed

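Gene counts per library, deposited by the authors as STAR tables of 24054 genes, were taken from the column that counts both strands, since the polyA library kit was non-directional per the labels' protocols, and 48.4% to 49.9% of gene-assigned reads of the organoid libraries were on 1 of the strands. The 3 duodenal libraries, used only in the fit of all 13 libraries, had 98.5% to 98.9%. STAR, DESeq2 1.22.2 and the mm10 build are named in the submitters' processing notes, and no version of STAR was given in the sources used here. The unmapped and ambiguous rows (2.58% to 4.08% of reads unmapped) stayed out of library sizes.

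The 2 Sec-Cre, 2 ISC-Cre and 2 WT organoid libraries were fitted together in edgeR 4.0.16 (TMM scaling, filterByExpr with a minimum count of 10, quasi-likelihood test, Benjamini-Hochberg adjustment over 14208 genes, threshold 0.05, 3 residual degrees of freedom), with Sec-Cre minus ISC-Cre as the contrast. A log2 fold change is from this fit, SE is the fold change over the root of F, and "no overlap" means that both Sec-Cre values were on 1 side of both ISC-Cre values. R 4.3.3, DESeq2 1.42.0, limma 3.58.1 and Python 3.11.15 were used, and the test was checked on simulated data. Replicates were not duplicates of one another (chi-square per degree of freedom of 18.0, 31.8 and 43.7). Alternatives were other scalings, filters, tools, sets of libraries, a replicate block and each library left out. Coordinates are those of GENCODE vM21 (GRCm38), which matched 23669 of 24054 genes (98.4%). Gene lists and members were chosen with earlier results of these data known. Named were Apc, Lgr5, Atoh1 and Axin2, HoxB genes and their neighbours, all genes called, up to 15 others in each direction, and from each list up to 3 genes at least 1.5-fold apart without overlap at an unadjusted p under 0.05, or its most abundant 2. Some genes that this rule names are not reported here. Genes outside this rule are said to be chosen after their values were seen or serve as markers. List counts without a library, list medians under RLE scaling and lists taken by gene name were added after seeing the data.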

Additional observations from a re-analysis of the deposited data

How the results depend on the processing

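The count of genes called between the drivers, 6, was 8 with RLE scaling, 6 at a minimum count of 50, 5 with glmTreat against a fold of 1.5 and 6 with limma voom. It moved to 24 with no filter on low counts, 11 in the fit of the 4 Apc-null libraries alone, 1 in the fit of all 13 libraries (Hoxb7, adjusted p = 0.0409), 72 in DESeq2 and 12 in limma voom with sample quality weights. Leaving out 1 library gave 0 to 9 calls, and such fits assume that the lone library of a group varies like the others. With the replicate number as a block the count was 4, all among the 6, but numbers need not pair the samples: with 2 per group, deviations of same-numbered libraries had a correlation of -0.065. RLE scaling turned the split of genes without overlap from 2944 higher and 2566 lower to 2571 and 2929. The share of genes with an interval within 2-fold was 65.0%, and 38.1% with a margin of 1.5-fold, with 51.7% to 67.1% when 1 library was left out. Genes 2-fold apart without overlap numbered 1440 with no filter and 355 at a minimum count of 50. Mean distances of replicate, cross-driver and WT pairs were 0.819, 0.744 and 2.18 with a prior count of 0.5, and 0.410, 0.403 and 1.39 for genes with a mean log2 CPM of at least 3. The replicate mean includes the pair of WT libraries, the largest replicate distance in the main setting (0.816). These means thus do not set cross-driver pairs against Apc-null replicates alone. The causes of these moves were not tested.

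Of 1304 values recomputed for 94 named genes, 1173 kept direction and call, 28 lost the call, 57 gained it and 46 turned direction, the last in 22 genes, none of them called. Axin2 turned to 0.0049 with no filter and 0.010 with 13 libraries, and Hsp90b1 to 0.012 and 0.017. Cbx1 turned to -0.022 with RLE scaling and in DESeq2, -0.018 at a minimum count of 50, -0.0099 with 4 libraries and -0.0022 with the block. Ret turned to -0.0090 with RLE scaling, -0.0052 at a minimum count of 50, -0.060 with the block, -0.0091 in DESeq2 and -0.047 in limma voom with quality weights. With 1 library left out, log2 fold changes that turned direction ranged as follows: Apc -0.32 to 0.0071, Axin2 -0.036 to 0.018, Snx11 -0.27 to 0.012, Cbx1 -0.12 to 0.12, Nfe2l1 -0.089 to 0.24, Snf8 -0.059 to 0.22, Gip -7.10 to 3.88, Igf2bp1 -0.059 to 0.78, Hoxa3 -4.73 to 0.36, Hoxa5 -4.89 to 0, Hoxd4 -1.66 to 1.32, Suz12 -0.25 to 0.25, Top2a -0.10 to 0.17, Mki67 -0.14 to 0.32, Gapdh -0.072 to 0.45, Pdia3 -0.14 to 0.00095, Hsp90b1 -0.048 to 0.044, Cdh5 -1.23 to 0.14, Egfl7 -0.047 to 0.14, Cd68 -0.65 to 0.0025, Lyz2 -3.09 to 0.71 and Ret -0.54 to 0.41. With 2 libraries a group and a biological coefficient of variation of 0.217, the median half-width of an interval was 0.51 on the log2 scale, and at low depth Gip, Hoxa3, Hoxa5 and Hoxd4 had wider ranges.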

Other observations

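Antigen presentation genes were read in all Apc-null libraries. Cd74, the invariant chain of MHC class II, was at 17.1 and 11.4 in Sec-Cre, 51.8 and 31.3 in ISC-Cre organoids and 2.43 and 0.456 CPM in WT. For Cd74 the log2 fold change was -1.54 ± 0.52 SE (adjusted p = 0.984). H2-Eb1, a class II chain, was at 0.748 and 1.52 in Sec-Cre, 5.58 and 2.73 in ISC-Cre organoids and 0.567 and 0.304 CPM in WT. For H2-Eb1 the log2 fold change was -1.86 ± 0.66 SE (adjusted p = 0.984). Both were lower in both Sec-Cre than in both ISC-Cre libraries, and neither was called. Of the 6 class II genes tested 3 were lower and 2 higher without overlap (backgrounds 18.1% and 20.7%, also for the lists that follow), and the T cell genes Cd3g, Cd4 and Cd8a had no read. Krt17, a keratin of stratified epithelia, was at 4.95 and 3.18 in Sec-Cre, 38.5 and 13 in ISC-Cre organoids and 0 and 0 CPM in WT (log2 fold change -2.66 ± 0.57 SE, adjusted p = 0.749 in edgeR, 0.00324 in DESeq2), and was picked after its values were seen, as the second keratin beside Krt14 with a DESeq2 call. Of 25 tested keratin genes, taken by name, 5 were lower and 4 higher without overlap, with a median log2 fold change of -0.055. Of 27 interferon response genes 5 were lower and 3 higher. Of 35 genes of fetal and regenerating epithelium 3 were lower and 2 higher, with Tubb6, a tubulin, at 43.9 and 48.6 in Sec-Cre against 91.2 and 61.9 CPM in ISC-Cre organoids. For Tubb6 the log2 fold change was -0.73 ± 0.23 SE (adjusted p = 0.984). Unfolded protein response genes gave 2 lower and 3 higher of 23, and gastric and foregut markers 4 lower and 0 higher of 9. Of 5 Reg family lectins only Reg4 was without overlap.

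Ribosomal protein genes, taken by name after the growth lists had been seen, gave 63 higher and 1 lower of 79 without overlap in Sec-Cre organoids (backgrounds 20.7% and 18.1%), with a median log2 fold change of 0.23, 22 higher at an unadjusted p under 0.05 (background 2.36%) and none called by edgeR. DESeq2 called 3 of them higher (background 0.146%). Respiratory chain genes gave 52 higher and 0 lower of 86, 3 of them called higher by DESeq2 and none by edgeR, with a median of 0.20. Under RLE scaling the medians were 0.21 and 0.17. The 3529 tested genes of at most 2672 exon bases had a median of 0.060. The part of transcript length was not tested.

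Sex-linked genes differed among libraries in a second way. In Sec-Cre replicate 2, Eif2s3y was at 20 and Kdm5d at 13.8 CPM, against 71.3 and 51.3 CPM in replicate 1, while Ddx3y was at 66.5 and 58.5 CPM and Uty at 38.7 and 41.1 CPM.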
